A study of Homo sapiens with 8 samples.

Results

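Metallothioneins are small cysteine-rich proteins that bind zinc, copper and cadmium, and this set of genes holds them together with MTF1, the transcription factor that senses zinc, and SLC30A1, the exporter that moves zinc out of the cell. The set lists 10 genes: MT1A, MT1E, MT1F, MT1G, MT1H, MT1M, MT1X, MT2A, MTF1 and SLC30A1. A gene entered with every probe set that the platform annotation assigns to it alone. That left 9 of the 10 genes, of 18132 genes measured in all, with 20 probe sets. MT1A was not analysed here. The genes were chosen from results of podofilox against control in these same arrays, so their differences are given as a description, with no p-value. How many of them pass the threshold used for all genes is given as counts, also under other settings, from which nothing is read.

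The arrays measured mRNA of AGS, an established human gastric adenocarcinoma line. There were 4 arrays of control cells and 4 arrays of cells treated with podofilox, a plant lignan that blocks the growth of microtubules, at 3.4 nM for 72 hours. All 8 arrays come from this 1 cell line. The labels do not say how long control cells were cultured, whether they received a solvent or whether replicates of a group were separate cultures. Each p-value thus reflects array-to-array spread alone, and that spread may be technical.

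Metallothionein genes lie side by side in 1 cluster and are among the most zinc-responsive genes of epithelial cells. When free zinc rises, MTF1 enters the nucleus and binds short metal response elements in the promoters of metallothionein genes and of SLC30A1. Metallothioneins are also induced by glucocorticoids and by oxidative stress.

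The promoter windows show where such elements can be read. Windows from RefSeq (GRCh38.p14), each 300 bases long and ending shortly after the start site, were found for 5 of the 10 genes: MT1H, MT1X, MT2A, MTF1 and SLC30A1. The core of the metal response element was searched as TGCACNC and TGCGCNC on both strands, and capitals mark each match. Those 4 windows that hold a match are printed, each in the direction of its gene. They lie at chr16:56608334-56608633 (MT2A, plus strand), chr16:56682220-56682519 (MT1X, plus strand), chr16:56669564-56669863 (MT1H, plus strand) and chr1:211579112-211579411 (SLC30A1, minus strand).
MT2A: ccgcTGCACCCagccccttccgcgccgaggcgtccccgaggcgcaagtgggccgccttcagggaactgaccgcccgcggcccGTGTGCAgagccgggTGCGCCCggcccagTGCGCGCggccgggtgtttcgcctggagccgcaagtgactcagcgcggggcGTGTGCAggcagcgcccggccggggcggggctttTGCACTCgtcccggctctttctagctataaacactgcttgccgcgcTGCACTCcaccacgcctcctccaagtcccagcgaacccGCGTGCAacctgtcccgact
MT1X: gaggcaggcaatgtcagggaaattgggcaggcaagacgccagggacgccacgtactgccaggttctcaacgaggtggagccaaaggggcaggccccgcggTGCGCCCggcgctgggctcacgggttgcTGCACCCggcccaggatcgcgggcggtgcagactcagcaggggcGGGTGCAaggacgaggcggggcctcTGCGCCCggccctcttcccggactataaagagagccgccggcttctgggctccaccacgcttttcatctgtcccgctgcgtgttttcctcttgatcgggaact
MT1H: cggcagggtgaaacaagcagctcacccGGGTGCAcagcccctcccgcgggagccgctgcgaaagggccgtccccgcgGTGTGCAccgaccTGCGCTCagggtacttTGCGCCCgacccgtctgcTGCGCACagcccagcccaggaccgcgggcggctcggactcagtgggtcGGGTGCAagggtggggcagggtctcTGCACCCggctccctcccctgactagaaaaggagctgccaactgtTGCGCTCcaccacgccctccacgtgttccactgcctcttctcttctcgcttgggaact
SLC30A1: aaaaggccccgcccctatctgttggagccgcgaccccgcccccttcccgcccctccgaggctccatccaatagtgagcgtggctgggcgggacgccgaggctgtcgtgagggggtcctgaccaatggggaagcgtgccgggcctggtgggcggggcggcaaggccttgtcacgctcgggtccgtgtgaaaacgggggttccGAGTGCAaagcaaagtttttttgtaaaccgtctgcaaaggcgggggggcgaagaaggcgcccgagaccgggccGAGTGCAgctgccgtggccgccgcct

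The MT2A window held 8 matches to the core, the MT1H window 8, the MT1X window 4 and the SLC30A1 window 2, while the MTF1 window held 0. Of the 35116 windows of the same length in the RefSeq table, 29.6% held at least 1 match, 8.6% at least 2, 0.601% at least 4 and 0.0199% at least 8. The MT1X and MT1H windows had matches starting at the same places, -78 and -53 counted from the start site, and MT2A had one starting at -54. The core of the antioxidant response element, searched as TGACNNNGC on both strands, had 1 match each in the MT2A, MT1X and SLC30A1 windows and 0 in those of MT1H and MTF1, against 13.3% of all windows with a match. These are matches of letters, and no binding was measured here.

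All values below are the deposited log2 expression values, and a difference is podofilox minus control. A probe set is called higher or lower where the p of limma's two-sided test, adjusted by Benjamini-Hochberg across the 44988 single-gene probe sets, was under 0.05. Errors of differences are limma's moderated standard errors (SE). With podofilox, MT2A was 1.27-fold, SLC30A1 1.19-fold, and MT1F and MT1X each 1.14-fold their control level on the brightest probe set of each gene. MT1H was level between the groups, at 0.978-fold. The largest difference of any member was 0.34. Of the 20 probe sets 19 had a difference above 0, 7 were called higher and 0 lower, against 7.83% of all probe sets called higher and 10.2% called lower. In 9 of the 20 the groups did not overlap and podofilox was the higher group, against 10.5% of all probe sets. Nothing is read from these counts, since the genes were chosen from this contrast. The median difference was 0.14 over the 20 probe sets and 0.16 over the 13 metallothionein probe sets, beside 0.0072 over all probe sets. The probe sets called higher across the whole array had a median difference of 0.28, and 30.6% of them differed by at least as much as the largest member.

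MT2A, the main metallothionein of most human epithelial cells, has 2 probe sets. On its brighter one (11753900_x_at) the control arrays 1 to 4 read 11.57, 11.69, 11.64 and 11.66, and the podofilox arrays 12.00, 12.04, 11.92 and 11.97. The 4 podofilox arrays were the 4 highest. The means were 11.64 ± 0.05 and 11.99 ± 0.05 (SD, n = 4 each), a difference of 0.34 (SE 0.05). It was 0.39 in arrays numbered 1 and 2 and 0.29 in arrays 3 and 4.

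The other MT2A probe set (11758729_x_at) read 7.84, 7.65, 7.59 and 7.86 in control cells and 7.87, 7.92, 7.88 and 7.94 with podofilox. The groups again did not overlap, but the highest control array came within about 0.01 of the lowest podofilox array. Its difference was 0.16 (SE 0.07), about the size of its control SD of 0.14.

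MT1X, a metallothionein of the MT1 group found in many tissues, also has 2 probe sets. The first (11757581_x_at) read 9.23, 9.19, 9.23 and 9.26 in control cells and 9.45, 9.43, 9.36 and 9.42 with podofilox. The second (11726385_a_at) read 9.15, 9.14, 9.25 and 9.22, and 9.47, 9.43, 9.35 and 9.38. On both, every podofilox array lay above every control array and podofilox array 3 was the lowest of its group. The differences were 0.18 (SE 0.04) and 0.22 (SE 0.05). Within arrays 1 and 2 they were 0.23 and 0.31, and within arrays 3 and 4 they were 0.14 and 0.13.

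MT1F, another member of the MT1 group, read 8.06, 8.16, 8.11 and 8.11 in control cells and 8.30, 8.35, 8.26 and 8.31 with podofilox on its brighter probe set (11721877_s_at). Its other probe set (11721878_x_at) read 7.56, 7.49, 7.56 and 7.54, and 7.81, 7.65, 7.69 and 7.67. The groups were apart on both. The differences were 0.19 (SE 0.04) and 0.17 (SE 0.05). Control SDs were 0.04 and 0.03, and podofilox SDs were 0.04 and 0.07 (n = 4 each).

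**Figure D1:**
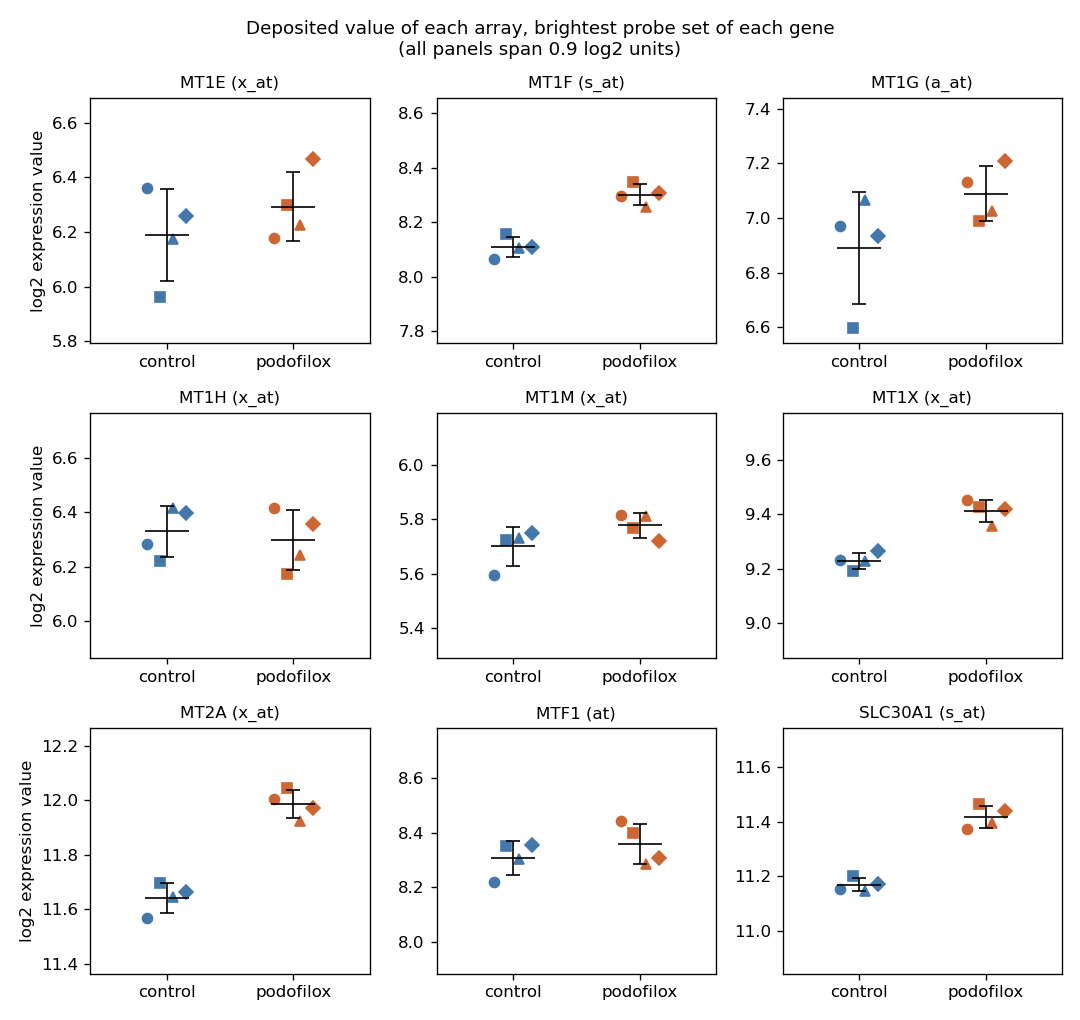
Deposited log2 value of each array (vertical axis) in control and podofilox cells for the brightest probe set of each of the 9 genes, with the mean and SD of 4 arrays in black; circle, square, triangle and diamond stand for replicates 1, 2, 3 and 4. The groups lie apart for MT1F, MT1X, MT2A and SLC30A1 and overlap for MT1E, MT1G, MT1H, MT1M and MTF1.

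The other 4 metallothionein genes had overlapping groups. MT1G varied most between control arrays, reading 6.97, 6.60, 7.06 and 6.93 on its brightest probe set (11717385_a_at) and 7.13, 6.99, 7.02 and 7.21 with podofilox. Control array 2 stood lowest there. The difference of 0.20 (SE 0.10) was no larger than the control SD of 0.20, and it was 0.10 without control array 2. A second MT1G probe set (11717387_x_at) behaved alike, with control array 2 at 6.15, the other control arrays at 6.47 to 6.63 and podofilox arrays at 6.53 to 6.66. These 2 probe sets correlated at 0.941 over the 8 arrays.

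MT1E (11716413_x_at) also had its lowest value, 5.96, on control array 2, with 6.36, 6.18 and 6.26 on control arrays 1, 3 and 4, and it read 6.18, 6.30, 6.22 and 6.47 with podofilox. Its difference was 0.10 (SE 0.09), and 0.03 without control array 2 or 0.04 without podofilox array 4. MT1H (11731857_x_at) read 6.29, 6.22, 6.42 and 6.40 in control cells and 6.42, 6.17, 6.24 and 6.36 with podofilox. It was the 1 member with a difference below 0, at -0.03 (SE 0.07), and the sign changed between arrays 1 and 2 (0.04) and arrays 3 and 4 (-0.11). It was 0.01 without podofilox array 2. MT1M differed by 0.08 (SE 0.05) on 11728398_x_at, or 0.04 without control array 1, and by 0.07 (SE 0.06) on 11728397_at. The latter, at 3.33 ± 0.06 in control cells (SD, n = 4), and the third MT1G probe set (11717386_s_at), at 3.42 ± 0.12 (SD, n = 4), were at the dim end of the array. Of the 20 probe sets 6 had a mean below 6.45, the median of all probe sets. The table carries no detection calls, so a transcript that is absent cannot be told from a weak one on these.

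Most metallothionein probe sets cannot be tied to 1 transcript by their design. Of the 13, 8 are of the _x_at kind and 2 of the _s_at kind, which can bind transcripts of related genes. Metallothionein mRNAs are close in sequence, so part of the signal of such a probe set may come from another member. That includes both MT2A probe sets, and how much of the signal is shared was not tested. Without probe sets of these kinds, MT1X still differed by 0.22 (SE 0.05), while MT1E, MT1F, MT1H and MT2A had no probe set left.

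**Figure D2:**
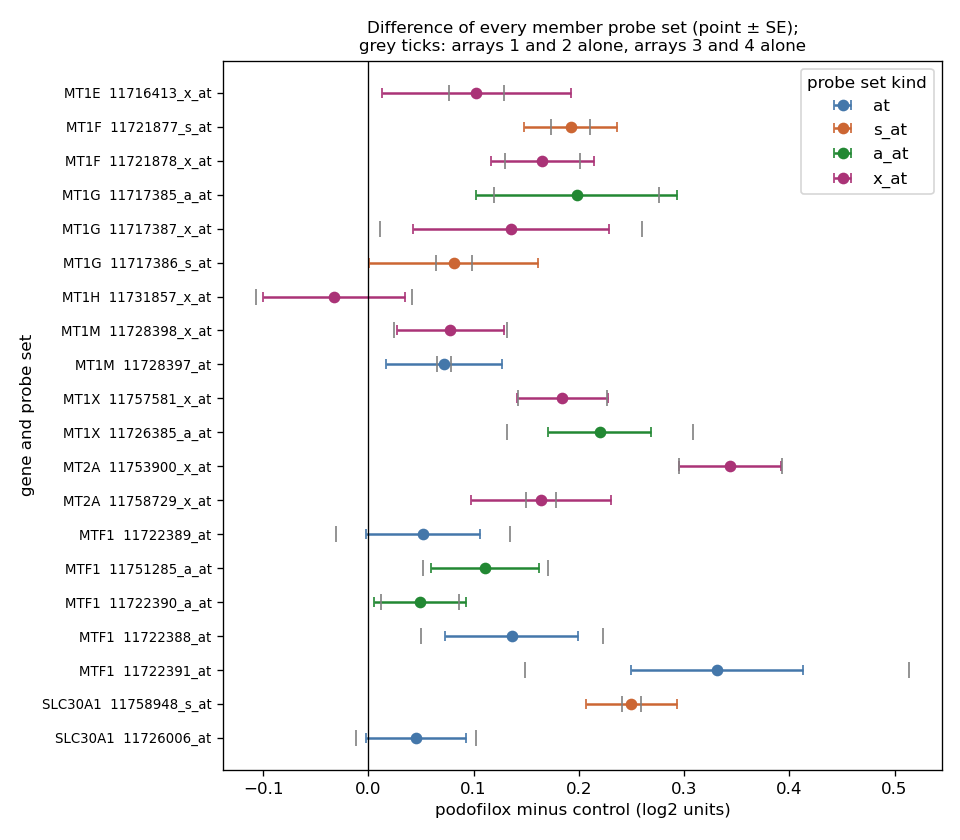
Podofilox minus control in log2 units (horizontal axis) for all 20 probe sets, with the SE as bars and colour for the kind of probe set; grey ticks give the difference in arrays 1 and 2 and in arrays 3 and 4. All points but MT1H lie right of 0, and the ticks of MTF1 spread widest, from 0.15 to 0.51 on 11722391_at.

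SLC30A1, also called ZnT1, exports zinc across the plasma membrane and is itself a target of MTF1. Its brighter probe set (11758948_s_at) read 11.15, 11.20, 11.15 and 11.17 in control cells and 11.37, 11.46, 11.39 and 11.44 with podofilox. Every podofilox array was above every control array. The difference was 0.25 (SE 0.04), with control and podofilox SDs of 0.02 and 0.04 (n = 4 each), and it was nearly equal in arrays 1 and 2 (0.24) and arrays 3 and 4 (0.26). The other probe set (11726006_at) read 7.71, 7.67, 7.66 and 7.60, and 7.65, 7.70, 7.78 and 7.68. Here the groups overlapped, and the difference was 0.045 (SE 0.05). The probe sets of this gene therefore gave different pictures, and the groups were apart on the _s_at probe set alone.

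MTF1, the zinc sensor, has 5 probe sets. The dimmest of them (11722391_at) read 5.48, 5.42, 5.49 and 5.51 in control cells and 5.97, 5.96, 5.69 and 5.61 with podofilox. Podofilox arrays 1 and 2 stood well above arrays 3 and 4, so the difference of 0.33 (SE 0.08) was 0.51 in arrays 1 and 2 and 0.15 in arrays 3 and 4. The brightest (11722389_at) read 8.22, 8.35, 8.31 and 8.35, and 8.44, 8.40, 8.29 and 8.31. Its groups overlapped, with a difference of 0.05 (SE 0.05) that was 0.13 in arrays 1 and 2 and -0.03 in arrays 3 and 4. It was 0.02 without control array 1 or podofilox array 1. The 3 others differed by 0.05 to 0.14. Among them the groups were apart on 11751285_a_at (7.62 to 7.64 in control and 7.68 to 7.87 in podofilox arrays) and overlapped on the rest. Each of the 3 was further above control in arrays 1 and 2 than in arrays 3 and 4. Whether this split of the podofilox arrays is technical was not tested.

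The order of the genes on chromosome 16 puts the 7 measured metallothioneins of the set in 1 run with MT4, MT3, MT1A and MT1B. MT1B, outside the set, sits between MT1A and MT1F and rose by 0.25 (SE 0.07, limma adjusted p = 0.0231), with 6.31 ± 0.11 in control and 6.56 ± 0.09 in podofilox arrays (SD, n = 4 each). That call ended on leaving out control array 2 or 4 or podofilox array 2, 3 or 4 (adjusted p up to 0.0682). MT3 and MT4, which are known from brain and from squamous epithelium, were dim and differed by 0.09 and -0.03, not past the test. The coding genes next to the run were chosen by position alone after the member values were seen. BBS2 on one side differed by -0.07 (SE 0.05, limma adjusted p = 0.401), not past the test, and NUP93, a nuclear pore gene on the other, fell by 0.20 (SE 0.04, limma adjusted p = 0.011).

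**Figure D3:**
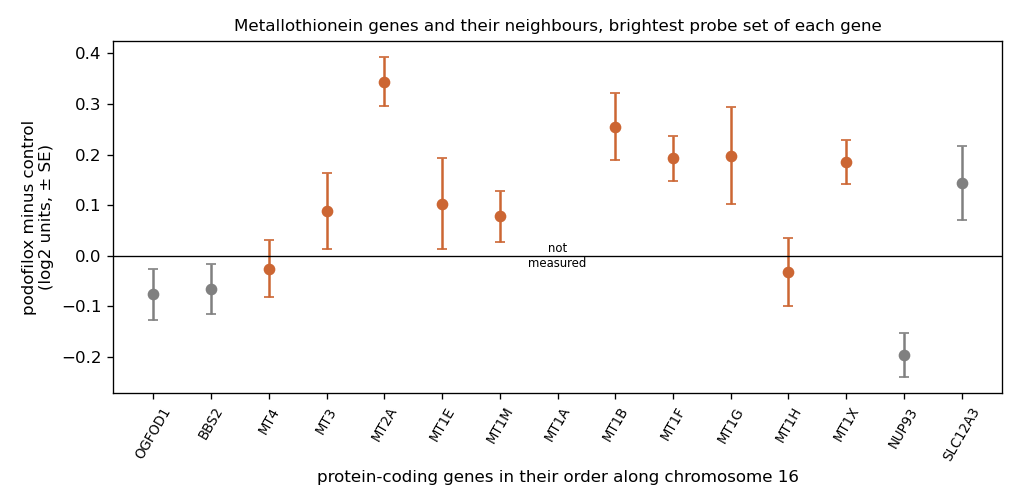
Podofilox minus control in log2 units with SE (vertical axis) for the brightest probe set of each coding gene, in the order of the genes along the chromosome (horizontal axis, not to scale); metallothioneins are orange and neighbours grey. Values within the run range from -0.03 (MT4 and MT1H) to 0.34 (MT2A), and NUP93 beside MT1X is at -0.20.

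The other genes of metal handling moved in both directions. Each gene was read from its brightest probe set, and against 7.64% of all 18132 genes called higher and 11.5% called lower, 4 of 23 other zinc transporters rose and 3 fell. Of 6 other metallothionein genes and pseudogenes measured, of 8 listed, 1 rose (MT1B) and 0 fell, with a median difference of 0.09. The lists were written from textbook knowledge with earlier results of these arrays known.

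Among the 9 exporters of the SLC30 family besides SLC30A1, 2 rose and 2 fell, with a median of 0.04. SLC30A5 and SLC30A7, which load zinc into the secretory pathway, rose by 0.30 (SE 0.05, limma adjusted p = 0.00199) and 0.26 (SE 0.07, limma adjusted p = 0.0232); SLC30A7, the fourth of the list by p, is named after its value was seen. SLC30A6, the partner of SLC30A5, fell by 0.33 (SE 0.06, limma adjusted p = 0.00442), and its 3 other probe sets were lower as well, at -0.36, -0.53 and -0.27. SLC30A10, which mainly exports manganese, fell by 0.28 (SE 0.06, limma adjusted p = 0.0091) from a dim 4.95 ± 0.11 (SD, n = 4), and its other probe set was at 0.02. Averaged over both probe sets the difference was -0.13 and no longer called. The call of SLC30A5 ended without _x_at and _s_at probe sets (0.25), although all 6 of its probe sets were higher, by 0.20 to 0.38. The call of SLC30A7 was lost without control array 3 or 4 or podofilox array 2, 3 or 4 (adjusted p up to 0.0723) and with the mean over its probe sets (0.13), its other ones being at 0.17 and -0.04. Its difference was 0.11 in arrays 1 and 2 and 0.41 in arrays 3 and 4.

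Among 14 importers of the SLC39 family, 2 rose and 1 fell, with a median of 0.02. SLC39A10, a plasma membrane importer that MTF1 is known to repress, rose by 0.19 (SE 0.04, limma adjusted p = 0.0129). SLC39A14, an importer of zinc, iron and manganese, fell by 0.21 (SE 0.04, limma adjusted p = 0.0059). SLC39A7, which releases zinc from the endoplasmic reticulum, rose by 0.33 (SE 0.10, limma adjusted p = 0.0437), but the difference was 0.60 in arrays 1 and 2 and 0.06 in arrays 3 and 4. Its call ended on leaving out control array 1 or 2 or podofilox array 1, 2 or 4 (adjusted p up to 0.107). It also ended with array weights and when the arrays were quantile normalized once more. The other SLC39A7 probe sets were at 0.31 and 0.32 (limma adjusted p = 0.0447 and 0.0201).

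Of 11 copper handling genes 1 rose and 3 fell, with a median of -0.04. SLC31A1, the copper importer, rose by 0.21 (SE 0.06, limma adjusted p = 0.0252). That call ended on leaving out control array 1 or 4 or podofilox array 1, 2 or 4 (adjusted p up to 0.0809). Its other probe sets were at 0.24 and 0.22 (limma adjusted p = 0.00464 and 0.00475), and the dimmest at -0.04, not past the test. COMMD1, which acts in copper export, fell by 0.37 (SE 0.06, limma adjusted p = 0.00266). SCO1, which delivers copper to cytochrome oxidase, fell by 0.25 (SE 0.05, limma adjusted p = 0.00786), and CCS, the copper chaperone of superoxide dismutase, fell by 0.22 (SE 0.05, limma adjusted p = 0.0117).

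**Figure D4:**
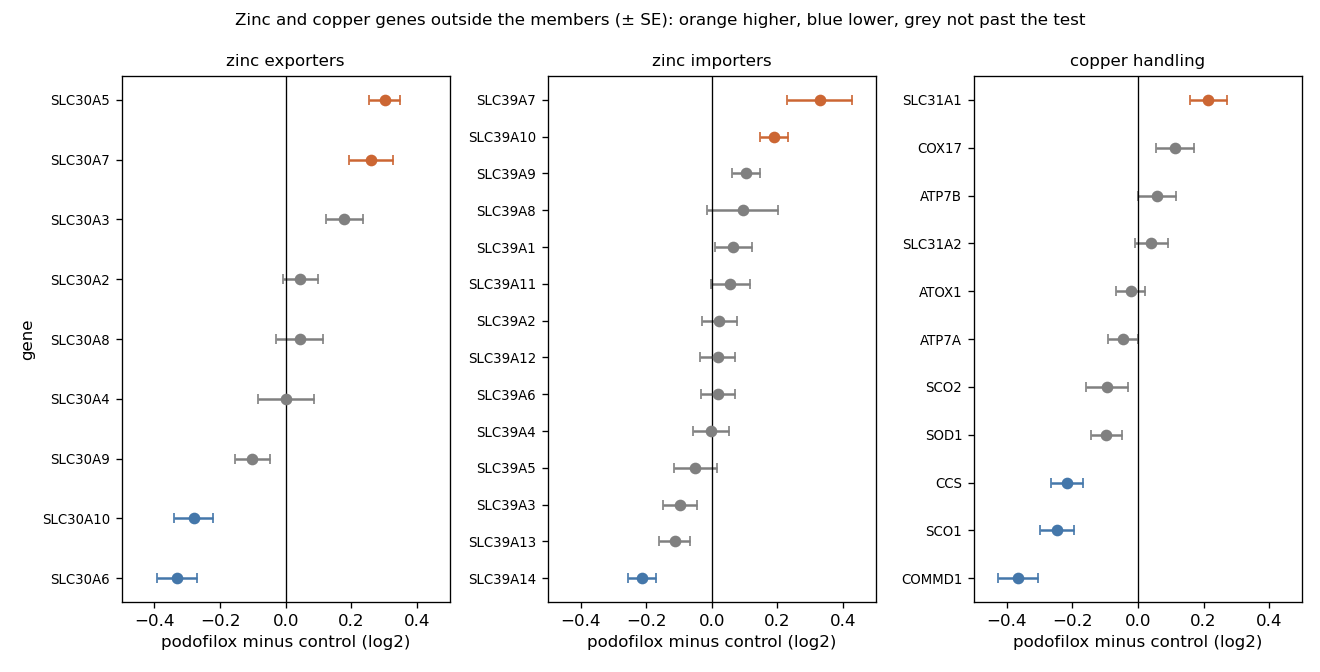
Podofilox minus control in log2 units with SE (horizontal axis) for 9 zinc exporters, 14 zinc importers and 11 copper handling genes (vertical axis), from 4 arrays a group; orange rose, blue fell and grey did not pass the test. SLC30A5 (0.30) and SLC30A6 (-0.33) sit at opposite ends of the exporters.

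Other genes known to share inducers with metallothioneins were read in the same way, and the same backgrounds of 7.64% and 11.5% apply. In each of the following lists, as among the other metallothioneins, limma's count of lower genes was 0 at an unadjusted p under 0.05 too. Of 10 NRF2 targets, the oxidative stress genes, 4 rose and 0 fell, with a median of 0.15. The cystine transporter SLC7A11 rose by 0.39 (SE 0.04, limma adjusted p = 0.000299), with other probe sets at 0.33 and -0.00015 and a mean over all of 0.24. GCLM and GCLC, the subunits of the first enzyme of glutathione synthesis, rose by 0.26 (SE 0.06, limma adjusted p = 0.00953) and 0.22 (SE 0.05, limma adjusted p = 0.0153). The call of GCLC ended without control array 4 (adjusted p = 0.056) and with the mean of its probe sets (0.09). TXNRD1, thioredoxin reductase, rose by 0.17 (SE 0.04, limma adjusted p = 0.0211). That call was lost without control array 3 or 4 or podofilox array 2 (adjusted p up to 0.0673). Its other probe sets were at 0.25 and 0.23 (limma adjusted p = 0.00217 and 0.00475). TXNRD1 is the fourth of the list by p and named after its value was seen. The 6 others did not pass the test: OSGIN1 (0.17), TXN (0.14), SRXN1 (0.12), ME1 (0.02), NQO1 (-0.01) and HMOX1 (-0.13). HMOX1, heme oxygenase, is induced by both NRF2 and metals. At an unadjusted p under 0.05 in limma, 6 of the 10 targets were higher.

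Of 10 heat shock genes 3 rose and 0 fell, with a median of 0.05. HSPB1, a small heat shock protein, rose by 0.24 (SE 0.05, limma adjusted p = 0.0055) and the co-chaperone BAG3 by 0.26 (SE 0.06, limma adjusted p = 0.00952). HSPH1 rose by 0.16 (SE 0.05, limma adjusted p = 0.0353), but each array except control array 2 was needed for that call (adjusted p up to 0.112 without one). The 7 other HSPH1 probe sets, at 0.04 to 0.16, did not pass the test, and the call also ended with the mean over all (0.09) and without _x_at and _s_at probe sets (0.07). DNAJB1 and HSF1 were at 0.06 and 0.0041, not past the test.

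Of 8 genes of the glucocorticoid response 3 rose and 0 fell, with a median of 0.16. The transcription factor KLF9 rose by 0.89 (SE 0.05, limma adjusted p = 8.9e-06), the clock gene PER1 by 0.83 (SE 0.07, limma adjusted p = 3.82e-05), and ERRFI1, a feedback inhibitor of the EGF receptor, by 0.67 (SE 0.04, limma adjusted p = 1.04e-05). The dimmest 2 of the 4 KLF9 probe sets were at -0.04 each, and the other probe sets of PER1 at -0.09 and 0.20. The means over all probe sets were 0.41 for KLF9 and 0.31 for PER1, both past the test. The 5 others did not pass the test: SGK1 (0.16), NR3C1, which encodes the receptor (0.16), ZBTB16 (0.11), TSC22D3 (0.08) and FKBP5 (-0.08). At an unadjusted p under 0.05 in limma, 5 of the 8 genes were higher.

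By the rule for likeness, ARHGEF3 (0.995), TKT (0.993), ARCN1 (0.993), KLF7 (0.993) and UGCG (0.992) had the highest Pearson correlation with the brighter MT2A probe set over the 8 arrays. Both groups enter that correlation, so genes with a clean difference rank high. Over the deviations from the group means, MLST8 (0.996), SFXN1 (0.988), LYN (0.981), WWC3 (0.981) and LGMN (0.980) ranked highest, and the lists had no gene in common. These are descriptions over 8 arrays that share their normalization, picked as the extremes of all measured genes that are not members.

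For the arrays as a whole, medians ran from 6.39 to 6.45 and the correlation across probe sets within a group was 0.996 to 0.999. Between arrays of different groups the correlation was 0.995 to 0.997. The mean over 6 epithelial markers ran from 12.70 to 12.76 in control and 12.89 to 12.93 in podofilox arrays, with the claudins CLDN4 and CLDN7 rising by 0.50 and 0.37 (limma adjusted p = 4.39e-05 and 0.000349) and 4 markers not past the test. The mean over 6 fibroblast markers was 4.53 to 4.71 and 4.61 to 4.74, over 5 immune cell markers 5.28 to 5.40 and 5.26 to 5.35, and over 6 endothelial markers 5.56 to 5.86 and 5.62 to 5.78. Of these 17 markers 0 rose (2 at an unadjusted p under 0.05 in limma) and 1, CDH5, fell (limma adjusted p = 0.0228), a call lost without podofilox array 2 or 3 (adjusted p up to 0.0566). Its other probe set was at 0.21, and the mean of both, -0.12, was not past the test (limma adjusted p = 0.35). These are bulk samples, so fewer cells of a kind and less RNA per cell cannot be told apart.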

How the data were processed

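The authors deposited log2 expression values made with RMA (robust multi-array average), per the submitters' processing notes; its software and options are not given in the sources, and the values (2.64 to 15.02) fit that scale. RMA normalizes arrays to 1 distribution, which would hide a change shared by most genes. Of 49395 probe sets, 102 manufacturer controls, 1832 assigned to several genes and 2473 unnamed ones were left out, which left 44988. A group of 4 arrays limits the precision.

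The treated arrays were set against the controls in limma 3.58.1 under R 4.3.3 (lmFit, eBayes, group as the only term, no intensity filter), tested on simulated data. A gene was read from its probe set with the highest mean; the members were read from all of theirs. Members, lists and tests were chosen with earlier results of these data known. Named genes are all members, up to 3 called genes per list with the smallest p (more where a contrast needs them), and the 5 most like the brightest metallothionein probe set. Alternatives changed the probe sets per gene, filter, normalization, variance model, array weights, block and arrays. Same-numbered arrays of the groups did not deviate together (correlations -0.25 to 0.04), so numbers were not treated as pairs. Figures used matplotlib 3.10.9 in Python 3.11.15.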

Additional observations from a re-analysis of the deposited data

Results flagged for a closer look

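On 1 MTF1 probe set (11722388_at), control array 4 read 7.38 while the 3 other control arrays read 7.45 to 7.46, a gap that takes up 84.6% of the range of the group. It was the only sample that stood apart in this way among the 40 sets of 4 arrays examined (20 probe sets in each group), and chance flags about 1 in 20 such sets.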

How the results depend on the processing

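The median difference over the 9 genes was 0.18 and stayed above 0 under all 13 alternatives and on leaving out any array (0.10 to 0.20). The genes were chosen from this contrast and every setting reuses these arrays. The sign of the median was thus favoured in advance, and nothing is read from it. The median was 0.14 with the mean of the probe sets of a gene and 0.072 without _x_at and _s_at probe sets (5 genes left). With array weights it was 0.14, and 0.13 in arrays 3 and 4 alone. Of the settings that leave out 1 array it was lowest, at 0.10, without control replicate 2. Of the 9 genes, chosen from this contrast, 4 passed the threshold on their brightest probe set and 4 on leaving out any array, against 7.64% of all 18132 genes, and nothing is read from these counts. Only 1 of the 5 genes left passed without _x_at and _s_at probe sets, beside 2272 of 32513 probe sets called higher. There MT2A and MT1F have no probe set, and SLC30A1, at 0.045 on its remaining one, was not called. In arrays 1 and 2 alone 1 of the 9 passed, beside 1352 of 44988 probe sets. In arrays 3 and 4 alone 1 passed, beside 2032 of 44988. Only 2 arrays a group remain in these pairs, and nothing is read from these counts either.

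Over all probe sets 3522 were called higher and 4590 lower. These became 1550 and 2260 with the brightest probe set per gene, 1755 and 2253 with their mean, and 2272 and 2971 without _x_at and _s_at probe sets, where fewer features are tested. They were 1352 and 1353 in arrays 1 and 2, 2032 and 2610 in arrays 3 and 4, and 5534 higher with array weights, and on leaving out an array 2418 to 3451 and 3232 to 4296. Of the 68 zinc, copper and stress genes 16 rose and 6 fell, with 5 and 0 in arrays 1 and 2 (7 lower at an unadjusted p under 0.05 in limma), 7 and 3 in arrays 3 and 4, and 10 to 15 and 6 on leaving out an array (10 without control replicate 4 or podofilox replicate 2). With the replicate block 10 rose and 5 fell, 3 of the 9 member genes passed (all but MT1X of the 4), and 2405 and 3176 probe sets. That block ended the calls of SLC39A10 (adjusted p = 0.0509), CCS (0.054), SLC30A7 (0.0792), HSPH1 (0.104), SLC31A1, SLC39A7 and TXNRD1. Without moderation of variances the calls of MT1B, SLC30A7, SLC39A7 and CDH5 ended. Of the called list genes and markers, KLF9, PER1, ERRFI1, SLC7A11, CLDN4 and CLDN7 kept their calls in both pairs of arrays, and the others lost them in at least 1. MT1H changed sign in arrays 1 and 2 (0.04), and MTF1 in arrays 3 and 4 (-0.03). Probe sets below the median signal limit what can be seen of MT1E, MT1H and MT1M, and the spread between control arrays limits MT1G.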

Other observations

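The annotation assigns a further probe set (11753736_s_at) to 3 loci at once, MT1M among them, and it entered no comparison. Control arrays 1 to 4 read 6.10, 6.23, 6.16 and 6.17. Under podofilox the values were 6.34, 6.20, 6.51 and 6.30. Podofilox array 2 lay within the control range, and the difference was 0.17.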
